A study of Mus musculus with 8 samples.

Results

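Lysosomal degradation in hepatic macrophages was followed through 41 genes that encode soluble lysosomal enzymes, their cofactors and proteins of the lysosomal membrane. The members were taken by gene symbol from a list of textbook lysosomal genes. The rule uses no measured value, but the list was chosen with earlier results of these data known. All 41 symbols are among the 24786 in the deposited count files, and all 41 were among the 15254 genes that passed the filter on low counts. By role they were 11 proteases with the thiol reductase Ifi30, 10 glycosidases, 4 sulfatases, 8 lipid enzymes and lipid carriers, and 7 membrane proteins.

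RNA with a poly(A) tail had been sequenced from 2 subsets of liver macrophages of C57BL/6 mice. Kupffer cells reside in the sinusoids of the liver, while monocyte-derived macrophages (MoM) descend from monocytes of the blood. TG mice carry dnTGFβRII, a dominant-negative TGF-β receptor II, and WT mice are wild type. As background, this transgene is driven by a Cd4 promoter and acts in T cells, and the line is used as a model of cholangitis. Each of the 4 groups has 2 libraries. The labels give no age and no treatment, and no label ties a replicate to an animal of its own, so p-values measure only the spread between these libraries.

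The lysosome is the acidic compartment in which macrophages break down what they engulf, together with proteins and organelles delivered from within the cell. Its hydrolases are made in the endoplasmic reticulum, carried to the lysosome mostly by mannose 6-phosphate receptors and often activated there by cleavage at low pH. A proton pump acidifies the lumen, and heavily glycosylated membrane proteins line the inner face of the membrane. Kupffer cells clear senescent blood cells, bacteria and lipoproteins from portal blood, and lysosomal storage diseases fill them with undigested substrate.

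Many lysosomal genes carry an E-box, CACGTG, near their start, and its longer palindrome TCACGTGA is the core of the element bound by TFEB and its relatives, the transcription factors best known for switching on lysosomal genes. The promoter windows of RefSeq (GRCm38.p6, from 250 bases before to 50 bases after each gene start) matched 37 of the 41 members, all but Npc1, Ctsh, Ctsb and Asah1. Both strands were searched. CACGTG lay in a window of 13 of the 37 matched members (35.1%), against 8.09% of all 27025 genes with a window and 11.2% of the 11653 of them that were tested for expression. TCACGTGA, every copy of which also counts as CACGTG, lay in 5 of the 37 members (13.5%), against 1.13% of all genes and 2.03% of tested genes. The stretches below belong to the 9 members with a motif within 100 bases before the start, and they are shown for how near to the start it lies. The E-box or the longer palindrome is in capitals, each stretch reads 5′ to 3′ on the gene's own strand, and each ends at or before the base ahead of the gene start.
Ctsd (chr7:142387892-142387953, minus strand): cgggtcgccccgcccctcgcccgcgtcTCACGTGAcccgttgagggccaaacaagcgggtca
Ctsa (chr2:164833733-164833772, plus strand): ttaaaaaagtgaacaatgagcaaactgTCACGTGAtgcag
Lgmn (chr12:102439108-102439169, minus strand): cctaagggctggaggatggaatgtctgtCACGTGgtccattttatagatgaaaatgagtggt
Sgsh (chr11:119355511-119355567, minus strand): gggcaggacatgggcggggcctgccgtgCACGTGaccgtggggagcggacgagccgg
Arsa (chr15:89477425-89477468, minus strand): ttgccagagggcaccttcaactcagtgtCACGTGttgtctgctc
Glb1 (chr9:114401002-114401063, plus strand): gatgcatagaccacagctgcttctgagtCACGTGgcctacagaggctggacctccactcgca
Naglu (chr11:101069993-101070054, plus strand): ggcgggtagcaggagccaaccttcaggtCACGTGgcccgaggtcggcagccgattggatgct
Lamp1 (chr8:13159118-13159160, plus strand): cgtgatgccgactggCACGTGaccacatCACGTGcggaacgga
Mcoln1 (chr8:3500446-3500507, plus strand): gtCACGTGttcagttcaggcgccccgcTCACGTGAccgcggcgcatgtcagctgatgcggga
In all, the 13 members held 20 E-boxes, 7 of them within the longer palindrome, and 13 of the 20 lay within 100 bases before the start. Ctsa held 2 copies of the palindrome, the second just past the start that this window is set on. Ctsa and Lgmn each have another RefSeq start further upstream, and the window there holds no E-box. The stretches shown for Ctsa and Lgmn therefore lie inside the annotated gene, ahead of a downstream start. A match or its absence describes these letters only and shows no binding.

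**Figure D1:**
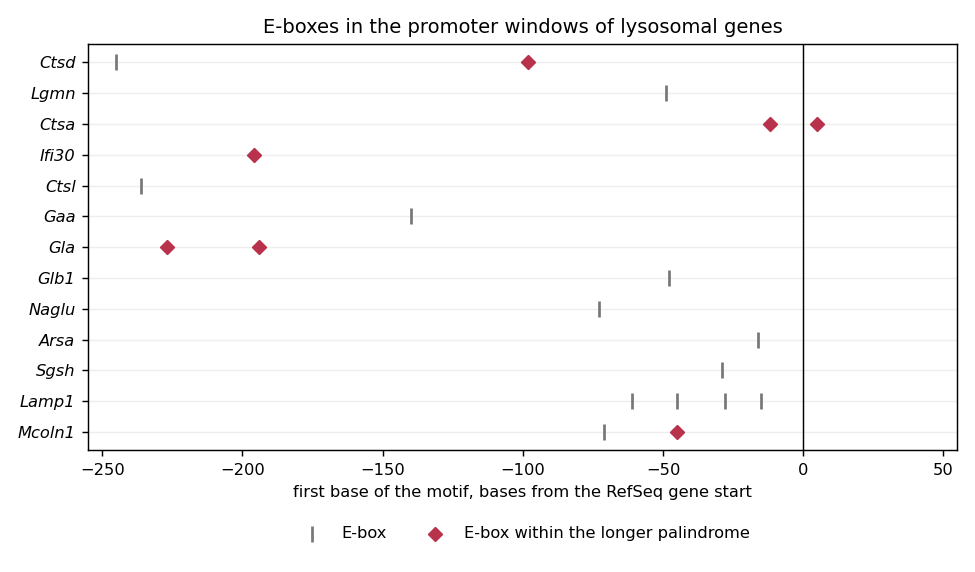
Positions of the 20 E-boxes in the promoter windows of the 13 lysosomal genes that hold one, with the longer palindrome marked apart. Distances are in bases from the RefSeq start that the window is set on, which for Ctsa and Lgmn is a downstream start. 13 of the 20 lie within 100 bases before the start.

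Libraries held 26190194 to 30308132 counts, 15366 to 17674 genes had a count, and 1 count equalled 0.0309 to 0.0378 CPM (counts scaled to equal library size). Of the 6 Kupffer markers, the summed level was 13396 to 27324 CPM in Kupffer libraries and 299 to 8202 CPM in MoM, and none of the 6 was at 0 in a library. The 6 monocyte-derived macrophage markers summed to 140.0 to 195 CPM in Kupffer and 1053 to 2959 CPM in MoM libraries, and the 6 dendritic cell markers to 41.9 to 157 CPM and 823 to 1454 CPM. A pair of libraries stood apart by their Kupffer and endothelial markers, and this pair is meant where libraries that stood apart are named below. Kupffer TG replicate 2 had the lowest Kupffer marker sum of its subset (13396 CPM, against 26665 to 27324 CPM in the other 3) and an endothelial marker sum of 5958 CPM, against 1613 to 2232 CPM. MoM WT replicate 1 had a Kupffer marker sum of 8202 CPM, where the remaining MoM libraries had 299 to 731 CPM, and an endothelial sum of 3777 CPM, against 458 to 1533 CPM. Neutrophil markers summed to 3444 CPM in MoM TG replicate 2 and to at most 74.8 CPM elsewhere. That library is not one of the pair, and the part of its neutrophil markers in the TG MoM values was not tested. Hepatocyte markers summed to 11.3 to 882 CPM, cholangiocyte markers to at most 345 CPM, T cell markers to at most 165 CPM, B cell markers to at most 218 CPM, and mast cell and basophil markers to at most 114 CPM. Tgfbr2, the receptor gene that the transgene imitates, had 349 and 345 CPM in WT Kupffer cells, 319 and 289 CPM in TG Kupffer cells, 232 and 174 CPM in WT MoM and 249 and 178 CPM in TG MoM. It was called in neither genotype comparison. Whether any reads of the transgene were counted as Tgfbr2 was not tested.

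The 41 genes together took a far larger share of the RNA in Kupffer cells than in MoM. They held 4.29% and 4.21% of all counts in the WT Kupffer libraries and 4.35% and 3.41% in the TG Kupffer libraries. In MoM they held 2.69% and 1.68% in WT and 1.90% and 1.82% in TG. The groups of the 2 subsets did not overlap, and the lowest Kupffer and the highest MoM library were those that stood apart by their markers. The difference lay mainly in the proteases, which took 2.07% to 2.67% of Kupffer and 0.568% to 1.22% of MoM counts. Membrane proteins took 0.336% to 0.396% against 0.147% to 0.236%, and glycosidases 0.204% to 0.378% against 0.136% to 0.247%, so that the glycosidase ranges overlapped. Lipid enzymes and carriers took 0.787% to 1.06% of Kupffer and 0.774% to 0.967% of MoM counts, and sulfatases 0.0188% to 0.0229% against 0.0256% to 0.0314%. In bulk RNA such as this, fewer cells of a type and less RNA per cell cannot be told apart.

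**Figure D2:**
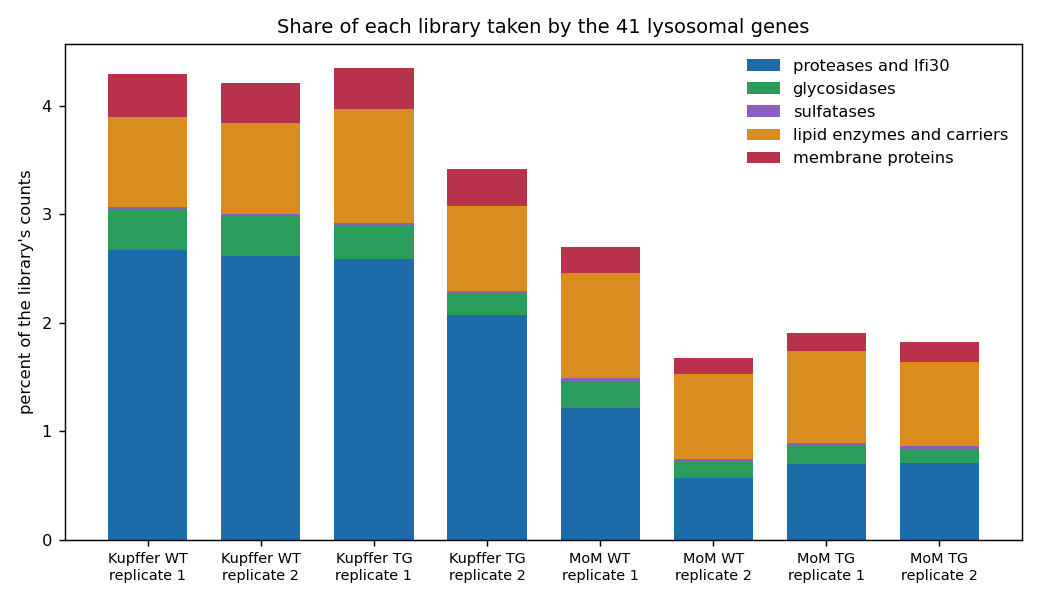
Percent of each library's counts held by the 41 lysosomal genes, stacked by role, for the 8 libraries. The Kupffer bars reach 3.41% to 4.35% and the MoM bars 1.68% to 2.69%, and the protease segment differs most between the subsets.

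Scaled to the length of each gene's exons, the most abundant of these messages were Psap, the precursor of the saposins that help degrade sphingolipids, Ctss and Ctsb. Their means over the 8 libraries were 2146, 1410 and 1316 CPM per kilobase. The order changed between subsets. Ctsb led in WT Kupffer cells with 2481 CPM per kilobase and was the sixth in TG MoM with 324. Gm2a moved the other way, from the twentieth place in WT Kupffer cells (108 CPM per kilobase) to the sixth in WT MoM (348) and the fifth in TG MoM (331). Psap held the first or second place in all 4 groups. Ctsk, the collagen-degrading cathepsin of osteoclasts, was the lowest in every group at 0.670 to 1.45 CPM per kilobase.

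**Figure D3:**
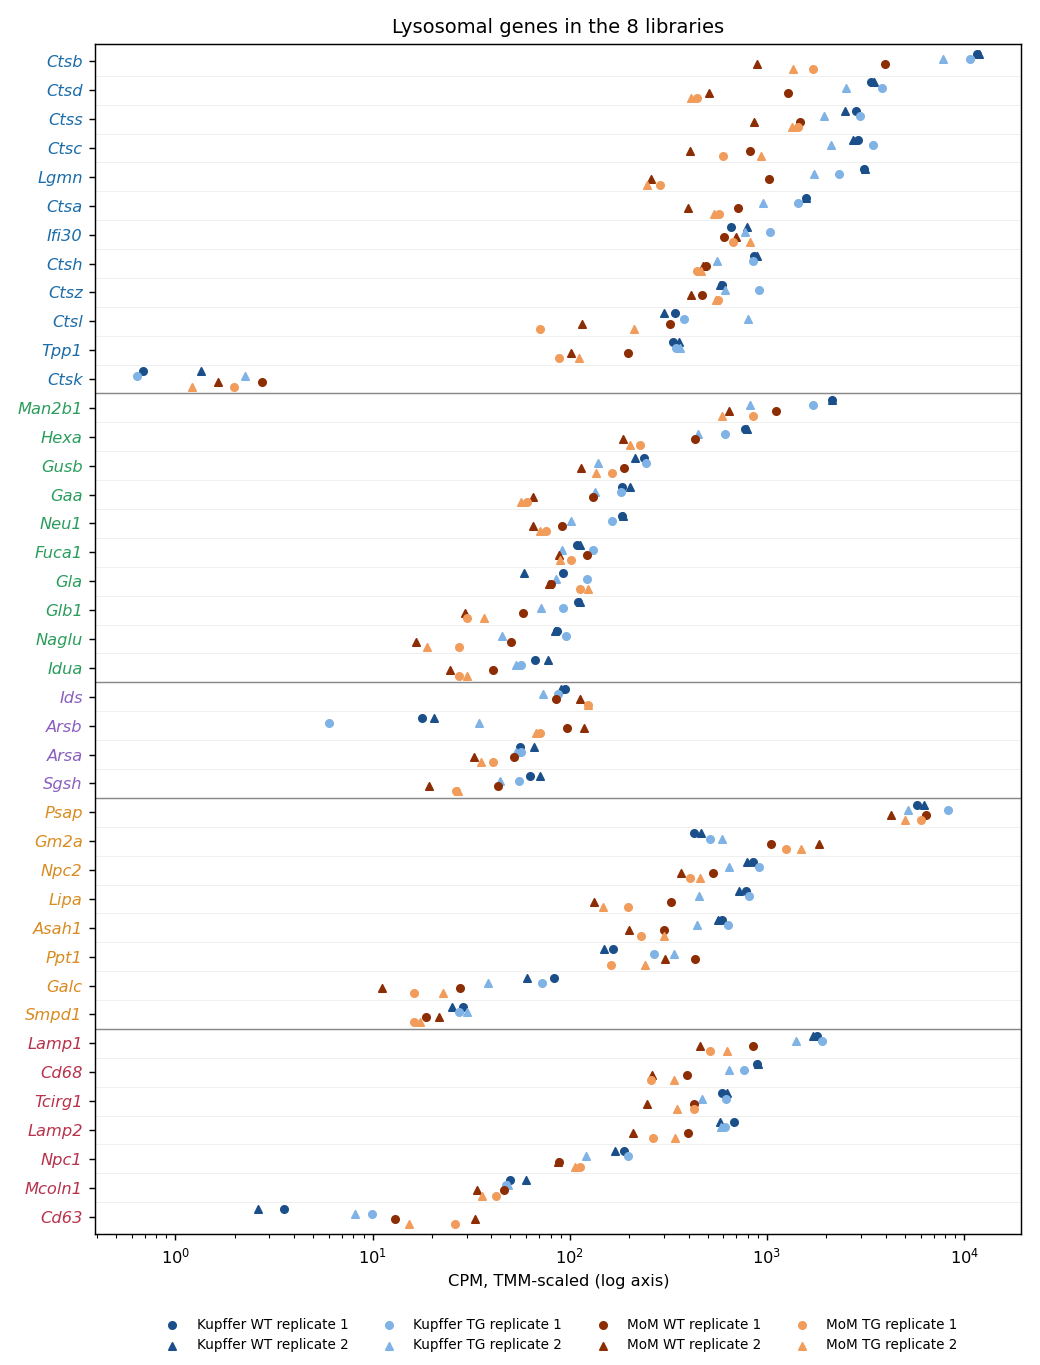
Level of each of the 41 lysosomal genes in each of the 8 libraries (CPM, log axis), grouped by role, with a colour for each group, circles for replicate 1 and triangles for replicate 2. Most protease, glycosidase and membrane protein points of Kupffer cells lie to the right of those of MoM, while Gm2a, Arsb and Cd63 lie the other way.

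The comparison of subsets asked how MoM differ from Kupffer cells in each genotype. Most lysosomal genes stood lower in MoM. The fitted log2 fold change was below 0 for 34 of the 41 genes in WT (median -1.03, against 0.11 over all genes tested) and for 35 in TG (median -0.85, against -0.04). The sign was the same in both genotypes for 40 of the genes, negative for 34 and positive for 6 (Ctsk, Gla, Ids, Arsb, Gm2a and Cd63), and differed for Ppt1 alone. Under at least 1 alternative the sign turned for Gla, Fuca1 and Psap in both genotypes. It also turned for Ids and Ctsl in WT and for Ctsk and Gusb in TG. All 4 MoM libraries lay below all 4 Kupffer libraries for 27 of the 41 genes, where 11.4% of all genes tested did so. They lay above for 3, Arsb, Gm2a and Cd63, where 14.8% of all genes did, and the libraries of the subsets overlapped for 11. The markers of monocyte-derived macrophages and of dendritic cells, 1053 to 2959 and 823 to 1454 CPM in MoM, also separated the subsets, so they move with every one of these differences in either direction, and their part in them was not tested. Without the 2 libraries that stood apart the counts were 32 below and 4 above, with 24.7% and 29.4% of all genes.

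Few of these differences passed the test that adjusts over all 15254 genes with 2 libraries a group. In WT, 0 of the 41 genes were called at an adjusted p below 0.05 with edgeR, where 1.17% of all genes were. At an unadjusted p below 0.05, 24 stood lower and 4 higher, where 25.4% of all genes passed in either direction. In TG, 1 was called, Ctsd, where 2.5% of all genes were, and 21 stood lower and 3 higher at an unadjusted p below 0.05, where again 25.4% of all genes passed. The number called moved with the libraries and the tool. Without Kupffer TG replicate 2 and MoM WT replicate 1 together, edgeR called 24 lower and 3 higher in WT (17.1% of all genes) and 21 lower and 2 higher in TG (13.6%); those groups then rest on 1 library each, which is assumed to vary like the others. With DESeq2 on all 8 libraries, 22 lower and 4 higher genes were called in WT (19.7% of all genes) and 20 lower and 1 higher in TG (18.1%). The subset comparisons in the 2 genotypes use different libraries but were fitted with a shared estimate of the spread.

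**Figure D4:**
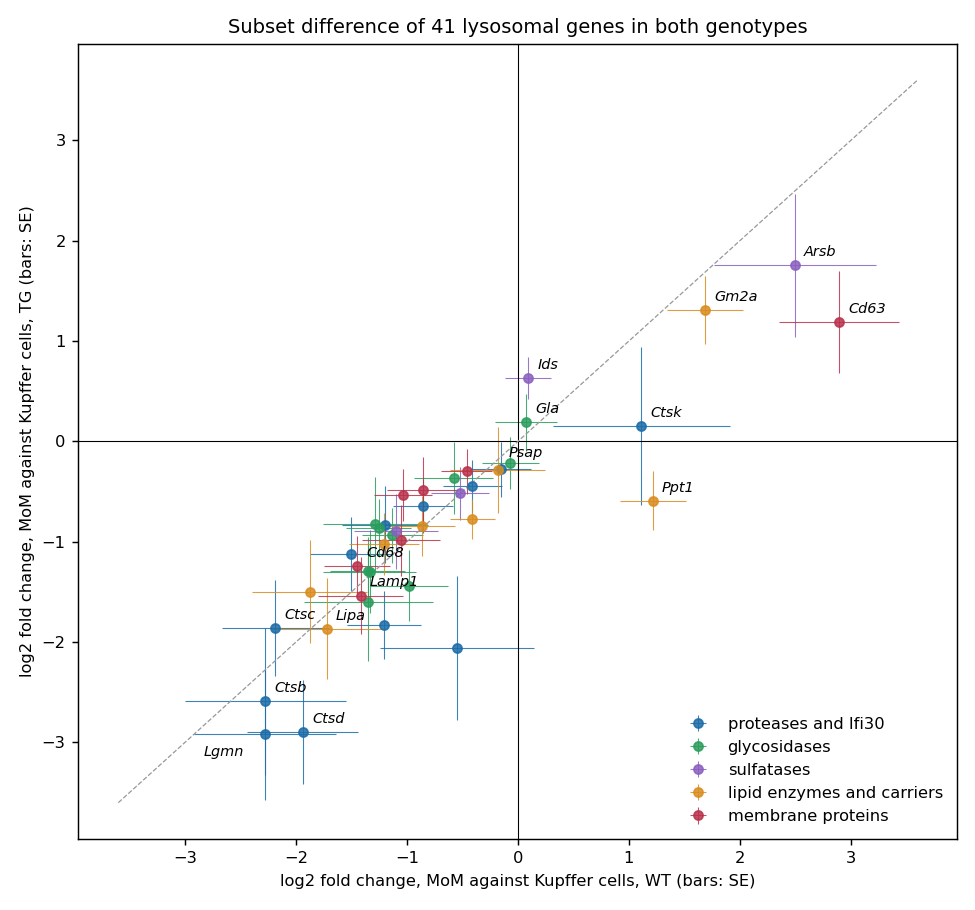
Log2 fold change of MoM against Kupffer cells in WT (horizontal axis) and in TG (vertical axis) for the 41 lysosomal genes, coloured by role, with bars for the SE. 34 points lie at the lower left, 6 at the upper right, and Ppt1 lies alone in the lower right.

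Proteases showed the widest gap. Of the 12 genes in this role, 11 had a negative log2 fold change in both genotypes, with medians of -1.20 in WT and -1.48 in TG. Ctsd, an aspartic protease that cuts proteins at acidic pH (chromosome 7, 142375911 to 142388038, GRCm38), had 3348 and 3489 CPM in WT Kupffer cells, 3834 and 2499 CPM in TG Kupffer cells, 1278 and 508 CPM in WT MoM and 440.1 and 411 CPM in TG MoM. Every MoM library lay below every Kupffer library, and MoM WT replicate 1 was the highest of the MoM. In TG, Ctsd fell by 2.90 ± 0.52 on the log2 scale, or 7.44-fold (adjusted p = 0.0486, 1.03e-07 to 0.273 over the alternatives). The call was lost without Kupffer TG replicate 1, without either WT Kupffer library, without either TG MoM library and with only the libraries compared. In WT the difference was not called (log2 fold change -1.94 ± 0.50, adjusted p = 0.103). Of the exon bases of Ctsd, 31.5% overlap the gene model Gm49369 on the same strand, which the count files do not list.

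Ctsb, a cysteine protease and the most abundant protease message of Kupffer cells, had 11649 and 11884 CPM in WT Kupffer cells, 10634 and 7841 CPM in TG Kupffer cells, 3975 and 889 CPM in WT MoM and 1718 and 1353 CPM in TG MoM. The Kupffer values were 7841 CPM and above, and the WT MoM replicates differed from each other more than the TG MoM replicates did. The log2 fold change of MoM against Kupffer cells was -2.27 ± 0.72 in WT (adjusted p = 0.136) and -2.59 ± 0.73 in TG (adjusted p = 0.0984). Without MoM WT replicate 1 and Kupffer TG replicate 2 both differences passed the test, at -3.76 ± 0.40 in WT (adjusted p = 0.00575) and -2.89 ± 0.31 in TG (adjusted p = 0.00721). Lgmn, the asparaginyl endopeptidase that matures several cathepsins, had 3104 and 3124 CPM in WT Kupffer cells, 2316 and 1727 CPM in TG Kupffer cells, 1029 and 257 CPM in WT MoM and 288 and 246 CPM in TG MoM. Its pattern was that of Ctsb, with no overlap of the subsets and with MoM WT replicate 1 about 4 times the other WT MoM replicate. Its log2 fold change was -2.28 ± 0.64 in WT (adjusted p = 0.112) and -2.92 ± 0.65 in TG (adjusted p = 0.0692).

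Ctsc, the dipeptidyl peptidase that activates serine proteases of leukocyte granules, had 2876 and 2716 CPM in WT Kupffer cells, 3435 and 2121 CPM in TG Kupffer cells, 822 and 408 CPM in WT MoM and 596 and 937 CPM in TG MoM. The subsets did not overlap (log2 fold change -2.19 ± 0.48, adjusted p = 0.0844 in WT). Tpp1, a tripeptidyl peptidase that trims peptides from their amino end, had 333 and 356 CPM in WT Kupffer cells, 346 and 362 CPM in TG Kupffer cells, 196 and 102 CPM in WT MoM and 87.98 and 111 CPM in TG MoM. All Kupffer values fell within 333 to 362 CPM, and the log2 fold change in TG, -1.83 ± 0.34, missed the threshold (adjusted p = 0.0525). Ctss, the protease that removes the invariant chain from MHC class II molecules, had 2836 and 2486 CPM in WT Kupffer cells, 2962 and 1950.0 CPM in TG Kupffer cells, 1469.6 and 856 CPM in WT MoM and 1428 and 1333 CPM in TG MoM. It stood lower in all MoM than in all Kupffer libraries, by a log2 fold change of -1.19 ± 0.39 in WT and -0.83 ± 0.39 in TG, neither of them called.

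Ctsl, a cysteine endopeptidase, did not separate the subsets in WT. In TG its MoM libraries lay below its Kupffer libraries, at a log2 fold change of -2.06 ± 0.72 (edgeR adjusted p = 0.142). DESeq2 called it in TG (adjusted p = 0.0154). Its levels were 343 and 299 CPM in WT Kupffer cells, 379.9 and 797 CPM in TG Kupffer cells, 322 and 116 CPM in WT MoM and 70.6 and 211 CPM in TG MoM. Kupffer TG replicate 2 was the highest, and MoM WT replicate 1 lay among the WT Kupffer libraries. Of its exon bases 28.2% overlap an antisense transcript, and whether the counting used strand is not given in the sources used here. Ctsz, a carboxypeptidase, had 592 and 575 CPM in WT Kupffer cells, 907 and 614 CPM in TG Kupffer cells, 466 and 412 CPM in WT MoM and 566 and 549.6 CPM in TG MoM, and here the subsets lay close together without overlapping (log2 fold change -0.41 ± 0.26, adjusted p = 0.343 in WT).

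The remaining proteases varied in how far they followed. Ctsa, a carboxypeptidase that protects the lysosomal galactosidase and neuraminidase, ranged over 955 to 1584 CPM in the 4 Kupffer libraries and 399 to 714 CPM in the 4 MoM libraries. Ctsh, an aminopeptidase, ranged over 560.0 to 884 CPM in the 4 Kupffer libraries and 443 to 493 CPM in the 4 MoM libraries. Neither overlapped between the subsets. Ifi30, an interferon-induced reductase that opens disulfide bonds of antigens, overlapped, at 659 to 1036 CPM in the 4 Kupffer libraries and 606 to 822 CPM in the 4 MoM libraries, and so did Ctsk, at 0.643 to 2.25 CPM in the 4 Kupffer libraries and 1.22 to 2.75 CPM in the 4 MoM libraries.

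Glycosidases, which remove sugars from glycoproteins, glycolipids and glycosaminoglycans, stood lower in MoM for 9 of 10 genes in both genotypes. Their medians were -1.19 in WT and -0.90 in TG, and 0 of 10 were called in either. Neu1, the neuraminidase that removes sialic acid, had 185 and 187 CPM in WT Kupffer cells, 164 and 101 CPM in TG Kupffer cells, 90.9 and 64.96 CPM in WT MoM and 75.8 and 70.6 CPM in TG MoM (log2 fold change -1.25 ± 0.29, adjusted p = 0.0894 in WT). The Kupffer libraries were all above the MoM libraries, with Kupffer TG replicate 2 nearest to them. Gaa, which degrades glycogen, had 184 and 202 CPM in WT Kupffer cells, 182 and 135 CPM in TG Kupffer cells, 131 and 64.9 CPM in WT MoM and 60.4 and 56.6 CPM in TG MoM. In TG its log2 fold change was -1.44 ± 0.36 (adjusted p = 0.0786). Man2b1, the acid α-mannosidase, had 2147 and 2129.9 CPM in WT Kupffer cells, 1719 and 822 CPM in TG Kupffer cells, 1114 and 638 CPM in WT MoM and 846 and 591 CPM in TG MoM. Kupffer TG replicate 2 lay below MoM WT replicate 1 and MoM TG replicate 1, so the subsets overlapped. Idua, which removes iduronic acid from dermatan and heparan sulfate, had 66.3 and 77.4 CPM in WT Kupffer cells, 56.6 and 53.1 CPM in TG Kupffer cells, 40.9 and 24.6 CPM in WT MoM and 27.3 and 30.1 CPM in TG MoM (log2 fold change -1.13 ± 0.27, adjusted p = 0.0943 in WT), with no overlap between the subsets.

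Gla, the α-galactosidase that degrades globosides, was the exception among glycosidases, with levels of 92.7 and 58.9 CPM in WT Kupffer cells, 122 and 85.4 CPM in TG Kupffer cells, 80.7 and 78.8 CPM in WT MoM and 112 and 124 CPM in TG MoM. Its log2 fold change between subsets was 0.07 ± 0.28 in WT and 0.19 ± 0.28 in TG, and the libraries overlapped. Hexa, the α subunit of β-hexosaminidase, ranged over 448 to 792 CPM in the 4 Kupffer libraries and 187 to 432 CPM in the 4 MoM libraries. Glb1, the β-galactosidase of the lysosome, ranged over 71.3 to 113 CPM in the 4 Kupffer libraries and 29.5 to 57.7 CPM in the 4 MoM libraries. Both kept the subsets apart. Naglu, an enzyme of heparan sulfate breakdown, ranged over 45.5 to 95.4 CPM in the 4 Kupffer libraries and 16.5 to 50.1 CPM in the 4 MoM libraries, and Gusb, the β-glucuronidase, over 139.5 to 244 CPM in the 4 Kupffer libraries and 114 to 189 CPM in the 4 MoM libraries, and both overlapped. Fuca1, which removes fucose, showed the smallest gap of the glycosidases that stood lower in MoM, at 90.9 to 131 CPM in the 4 Kupffer libraries and 88.3 to 123 CPM in the 4 MoM libraries.

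The 4 sulfatases were split. Arsb, which removes sulfate from dermatan sulfate, had 17.7 and 20.4 CPM in WT Kupffer cells, 6.01 and 34.8 CPM in TG Kupffer cells, 96.9 and 118 CPM in WT MoM and 70.4 and 67.3 CPM in TG MoM. All MoM libraries lay above all Kupffer libraries, and the TG Kupffer replicates differed from each other by more than 5-fold. The log2 fold change was 2.49 ± 0.73 in WT (adjusted p = 0.120) and 1.75 ± 0.71 in TG (adjusted p = 0.190). In TG its size and call moved with Kupffer TG replicate 2. The log2 fold change was 3.41 without that library, which leaves 1 library in the group, and 3.41 without MoM WT replicate 1 as well. In WT the size stayed within 2.34 to 2.62 over the alternatives, but the call moved too. There Arsb was called with only the libraries compared (edgeR adjusted p = 0.0143) and with DESeq2 (adjusted p = 0.00714). Of the exon bases of Arsb, 48.2% overlap the noncoding gene Gm26527 on the opposite strand. Ids, which removes sulfate from iduronic acid, had 94.9 and 90.2 CPM in WT Kupffer cells, 86.9 and 73.1 CPM in TG Kupffer cells, 84.8 and 113 CPM in WT MoM and 124 and 124 CPM in TG MoM, with overlap between the subsets in WT and none in TG (log2 fold change 0.63 ± 0.21, adjusted p = 0.129). Sgsh, a sulfamidase of heparan sulfate, ranged over 44.3 to 70.3 CPM in the 4 Kupffer libraries and 19.3 to 43.01 CPM in the 4 MoM libraries, and Arsa, which degrades sulfatides, over 53.1 to 66.2 CPM in the 4 Kupffer libraries and 32.7 to 52.2 CPM in the 4 MoM libraries. Both stood lower in all MoM libraries.

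Among the lipid enzymes and carriers the members also went both ways, 6 of 8 lower in MoM in WT and 7 of 8 in TG. Gm2a, the activator protein that presents ganglioside to β-hexosaminidase (chromosome 11, 55098115 to 55113029), stood higher in MoM, with 429 and 465 CPM in WT Kupffer cells, 517 and 589 CPM in TG Kupffer cells, 1046 and 1829 CPM in WT MoM and 1246 and 1489 CPM in TG MoM. Each MoM library exceeded each Kupffer library, and the log2 fold change was 1.69 ± 0.34 in WT (3.22-fold, adjusted p = 0.0730) and 1.31 ± 0.34 in TG (2.47-fold, adjusted p = 0.0838). Its partner enzyme subunit Hexa stood lower in MoM in both genotypes, by -1.34 ± 0.42 and -1.30 ± 0.42.

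Psap had 5791 and 6239 CPM in WT Kupffer cells, 8279 and 5162 CPM in TG Kupffer cells, 6371 and 4236 CPM in WT MoM and 6028 and 5007 CPM in TG MoM. The subsets overlapped, and the log2 fold changes, -0.18 ± 0.43 in WT and -0.28 ± 0.43 in TG, were smaller than their errors. Each turned sign when 1 library was left out, to 0.082 in WT without MoM WT replicate 2 and to 0.068 in TG without Kupffer TG replicate 1. The other sphingolipid and sterol genes stood lower in MoM. Lipa, the acid lipase that frees cholesterol and fatty acids from lipoproteins, ranged over 452 to 806 CPM in the 4 Kupffer libraries and 133 to 324 CPM in the 4 MoM libraries (log2 fold change -1.86 ± 0.50, adjusted p = 0.0902 in TG). Galc, which degrades galactosylceramide, ranged over 38.3 to 82.9 CPM in the 4 Kupffer libraries and 11.2 to 27.8 CPM in the 4 MoM libraries. Asah1, the acid ceramidase, ranged over 443 to 631 CPM in the 4 Kupffer libraries and 199 to 301 CPM in the 4 MoM libraries, Npc2, a soluble carrier of cholesterol, over 640.4 to 906 CPM in the 4 Kupffer libraries and 367 to 532 CPM in the 4 MoM libraries, and Smpd1, the acid sphingomyelinase, over 25.2 to 29.98 CPM in the 4 Kupffer libraries and 16.3 to 21.8 CPM in the 4 MoM libraries. None of these 5 overlapped between the subsets.

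Ppt1, the thioesterase that removes palmitate from proteins, was the 1 member whose sign differed between the genotypes. It had 166 and 149 CPM in WT Kupffer cells, 267 and 338 CPM in TG Kupffer cells, 429 and 303 CPM in WT MoM and 162 and 239 CPM in TG MoM. MoM stood above Kupffer cells in WT (log2 fold change 1.22 ± 0.30, adjusted p = 0.0972) and below them in TG (log2 fold change -0.59 ± 0.30, adjusted p = 0.270).

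Of the 7 membrane proteins 6 stood lower in MoM, with medians of -1.03 in WT and -0.53 in TG, and 0 were called. Lamp1, a major glycoprotein of the lysosomal membrane, had 1783 and 1701 CPM in WT Kupffer cells, 1893 and 1404 CPM in TG Kupffer cells, 849 and 455 CPM in WT MoM and 514 and 624 CPM in TG MoM. Kupffer values lay at 1404 CPM and above and MoM values at 849 CPM and below (log2 fold change -1.42 ± 0.38, adjusted p = 0.107 in WT and -1.54 ± 0.38 in TG). Lamp2, its relative that also serves chaperone-mediated autophagy, had 681 and 575 CPM in WT Kupffer cells, 614 and 586 CPM in TG Kupffer cells, 396 and 208 CPM in WT MoM and 264 and 341 CPM in TG MoM, again with no overlap. Cd68, a macrophage marker of the same family, had 886 and 896 CPM in WT Kupffer cells, 760.2 and 644 CPM in TG Kupffer cells, 393 and 259.8 CPM in WT MoM and 258 and 336 CPM in TG MoM. Its log2 fold change was -1.45 ± 0.30 in WT (adjusted p = 0.0745) and -1.24 ± 0.29 in TG (adjusted p = 0.0753).

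Npc1, the membrane protein that exports cholesterol, had 189 and 169.8 CPM in WT Kupffer cells, 197 and 120.3 CPM in TG Kupffer cells, 88.1 and 87.2 CPM in WT MoM and 113 and 106 CPM in TG MoM, so that the lowest Kupffer value, in TG replicate 2, was close to the highest MoM value. Tcirg1, a subunit of the proton pump, had 591 and 625 CPM in WT Kupffer cells, 619.8 and 469 CPM in TG Kupffer cells, 426 and 247 CPM in WT MoM and 427 and 350.2 CPM in TG MoM (log2 fold change -0.86 ± 0.33, adjusted p = 0.177 in WT). Mcoln1, the calcium channel of the lysosome, had 49.8 and 60.2 CPM in WT Kupffer cells, 47.4 and 48.7 CPM in TG Kupffer cells, 46.2 and 33.7 CPM in WT MoM and 42.2 and 35.96 CPM in TG MoM. The subsets overlapped for neither, and the log2 fold change of Mcoln1 was -0.46 ± 0.23 in WT and -0.30 ± 0.23 in TG.

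Cd63, a tetraspanin of late endosomes and secreted vesicles, was the membrane protein that stood higher in MoM. It had 3.56 and 2.61 CPM in WT Kupffer cells, 9.98 and 8.11 CPM in TG Kupffer cells, 12.97 and 32.98 CPM in WT MoM and 26.1 and 15.2 CPM in TG MoM, or 99 and 70 counts in the WT Kupffer libraries and 420 and 1025 counts in WT MoM. The log2 fold change was 2.89 ± 0.54 in WT (7.44-fold, adjusted p = 0.0662) and 1.19 ± 0.51 in TG (adjusted p = 0.208). A processed copy of the gene, Cd63-ps, exists in the annotation, and this low level may depend on how reads shared with that copy were counted, so it is uncertain.

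The comparison of genotypes asked whether macrophages of TG mice differ in these genes from those of WT mice. In Kupffer cells 0 of the 41 genes were called, and 0% of all genes were. At an unadjusted p below 0.05, 2 stood higher in TG and 0 lower, where 5.94% of all genes passed in either direction. With DESeq2 0 were called as well, but the share of all genes with that tool is not given here. The libraries of the genotypes did not overlap for 5 genes higher in TG, where 16.7% of all genes were, and for 14 lower in TG, where 17.7% were. The median log2 fold change was -0.15, against 0.03 over all genes. The shift came with Kupffer TG replicate 2, which was below replicate 1 in 33 of the 41 genes: without it the median was 0.07. The WT Kupffer replicates differed by a median of 0.11 on the log2 scale and the TG Kupffer replicates by 0.50.

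Ppt1 and Cd63 were the 2 genes with an unadjusted p below 0.05 in Kupffer cells. Ppt1 had 166 and 149 CPM in WT and 267 and 338 CPM in TG Kupffer cells (log2 fold change 0.94 ± 0.30, adjusted p = 0.730), with no overlap of the genotypes. Cd63 had 3.56 and 2.61 CPM in WT and 9.98 and 8.11 CPM in TG Kupffer cells (log2 fold change 1.55 ± 0.52, adjusted p = 0.730), also without overlap, at levels below those of MoM. On the higher side Gla came next by p, at 92.7 and 58.9 CPM in WT and 122 and 85.4 CPM in TG Kupffer cells (log2 fold change 0.45 ± 0.28, adjusted p = 0.765), where the genotypes overlapped and the value ran from 0.14 without Kupffer TG replicate 1 to 0.85 without Kupffer WT replicate 1. On the lower side the smallest p belonged to Neu1 at 185 and 187 CPM in WT and 164 and 101 CPM in TG Kupffer cells (log2 fold change -0.49 ± 0.29, adjusted p = 0.749), Man2b1 at 2147 and 2129.9 CPM in WT and 1719 and 822 CPM in TG Kupffer cells (log2 fold change -0.75 ± 0.47, adjusted p = 0.761) and Idua at 66.3 and 77.4 CPM in WT and 56.6 and 53.1 CPM in TG Kupffer cells (log2 fold change -0.39 ± 0.27, adjusted p = 0.781). In each of these 3 the genotypes did not overlap, and without Kupffer TG replicate 2 the value of Neu1 was -0.13 and that of Man2b1 -0.27. The endothelial marker sum of that library, 5958 CPM, moves with these values, and its part in them was not tested.

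By role, the glycosidases had 8 of 10 genes with a negative value in TG Kupffer cells (median -0.34). In 6 of them the genotypes did not overlap, where 17.7% of all genes stood lower without overlap. Among them Neu1 and Man2b1 shrank to -0.13 and -0.27 without Kupffer TG replicate 2. For the others the least negative values over the alternatives were -0.03 for Gaa, -0.23 for Glb1, -0.29 for Idua and -0.31 for Hexa. Proteases had a median of -0.06, lipid enzymes and carriers of 0.01 and membrane proteins of -0.16. The values of the most abundant members lay within their errors, at 0.16 ± 0.43 for Psap, -0.35 ± 0.69 for Ctsb, -0.12 ± 0.38 for Ctss and -0.11 ± 0.48 for Ctsd. Lamp1 and Lamp2 had -0.08 ± 0.37 and -0.07 ± 0.35.

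In MoM 0 of the 41 genes were called for genotype with edgeR or with DESeq2, and 0% of all genes were with edgeR. The share of all genes with DESeq2 is not given here. At an unadjusted p below 0.05, 0 stood higher in TG and 1 lower, where 6.47% of all genes passed. The genotypes did not overlap for 4 genes higher in TG, where 19.2% of all genes were, and 6 lower, where 20% were. The median log2 fold change was -0.14, against -0.04 over all genes, and it turned to 0.23 without MoM WT replicate 1, which exceeded replicate 2 in 35 of the 41 genes. That library also had the Kupffer marker sum of 8202 CPM, whose part in the difference was not tested.

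Ppt1 was the gene with the smallest p in MoM, and in the other direction than in Kupffer cells, at 429 and 303 CPM in WT and 162 and 239 CPM in TG MoM (log2 fold change -0.87 ± 0.30, adjusted p = 0.755). Ctsd followed at 1278 and 508 CPM in WT and 440.1 and 411 CPM in TG MoM (log2 fold change -1.07 ± 0.49, adjusted p = 0.757), then Gaa at 131 and 64.9 CPM in WT and 60.4 and 56.6 CPM in TG MoM (log2 fold change -0.74 ± 0.35, adjusted p = 0.757). Without MoM WT replicate 1 the value of Ctsd was -0.25 and that of Gaa -0.14, and without MoM WT replicate 2 they were -1.59 and -1.16. On the higher side were Gla at 80.7 and 78.8 CPM in WT and 112 and 124 CPM in TG MoM (log2 fold change 0.56 ± 0.28, adjusted p = 0.763), Ids at 84.8 and 113 CPM in WT and 124 and 124 CPM in TG MoM (log2 fold change 0.33 ± 0.21, adjusted p = 0.820) and Ctsz at 466 and 412 CPM in WT and 566 and 549.6 CPM in TG MoM (log2 fold change 0.35 ± 0.26, adjusted p = 0.844). For these 3 genes the 2 TG libraries lay above the 2 WT libraries, and the value of Ids was 0.14 without MoM WT replicate 1 and 0.55 without MoM WT replicate 2. Lgmn had the most negative log2 fold change, -1.27 ± 0.62, but its lower WT replicate lay between the TG replicates, and without MoM WT replicate 1 the value of Lgmn was 0.06.

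Whether the genotype difference depended on the subset was tested as an interaction. With edgeR 0 of the 41 genes were called, where 0% of all genes were, and 1, Ppt1, had an unadjusted p below 0.05, where 6.42% of all genes did. The TG effect on Ppt1 was lower in MoM than in Kupffer cells by a log2 difference of -1.81 ± 0.42 (adjusted p = 0.626). With DESeq2 the same difference was -1.81 with an adjusted p of 0.024, and Ppt1 was the 1 member called there, where 0.348% of all genes were. Its adjusted p ran over 0.0240 to 1.00 across the alternatives. Next by p were Cd63 (-1.70 ± 0.71, adjusted p = 0.626) and Ctsl (-1.51 ± 0.98) on the negative side. On the positive side were Ids (0.53 ± 0.29), Npc1 (0.50 ± 0.37) and Neu1 (0.40 ± 0.41). In Ppt1 and Ids, 2 of the 41, the TG libraries lay on one side of the WT libraries in Kupffer cells and on the other in MoM, where 6.58% of all genes did so. The 41 genes as a list had a median interaction of 0.02, against -0.12 over all genes.

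**Figure D5:**
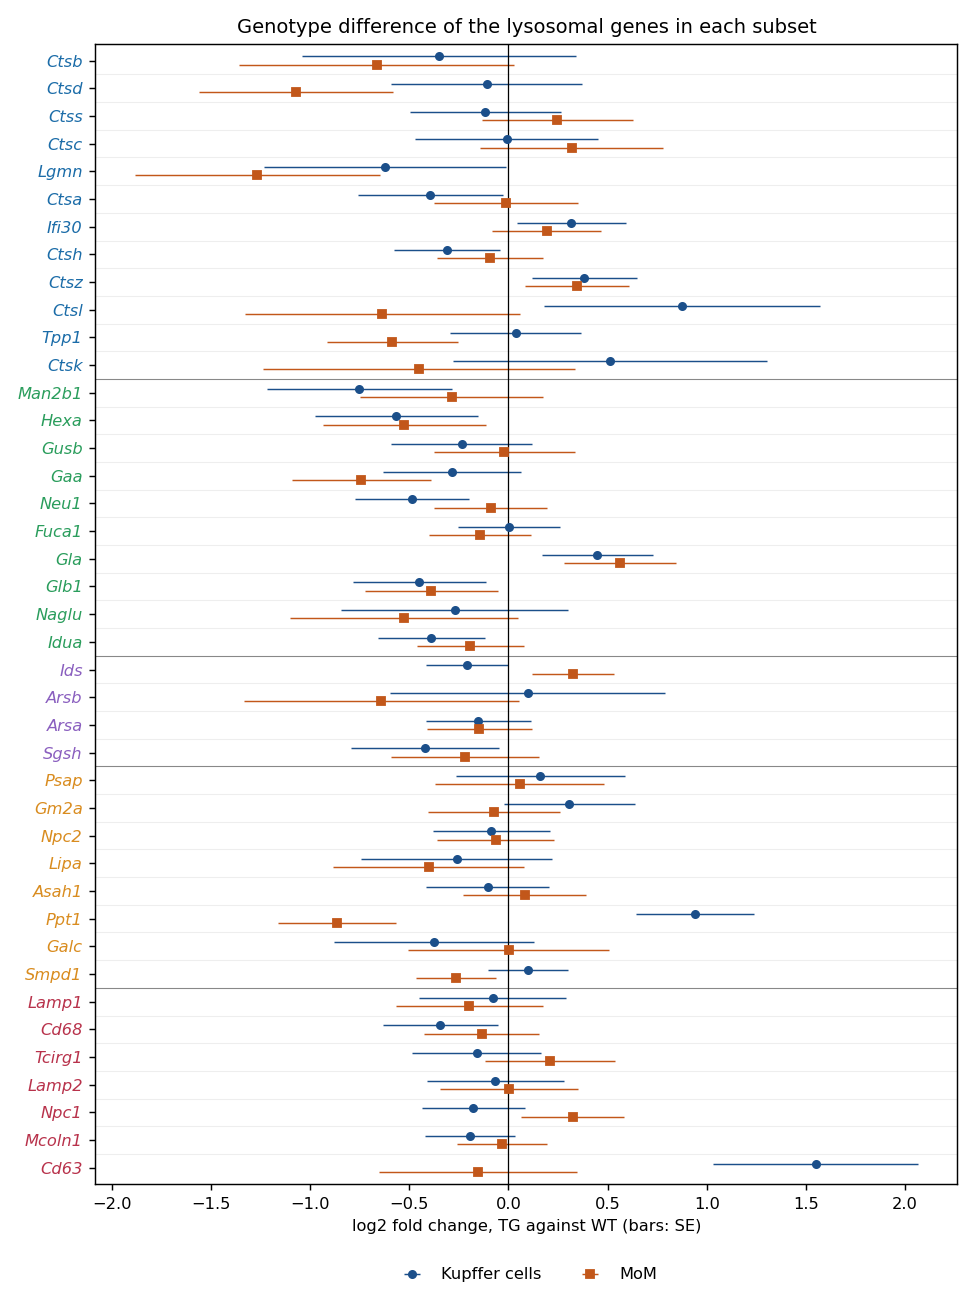
Log2 fold change of TG against WT for each of the 41 lysosomal genes in Kupffer cells (circles) and MoM (squares), with bars for the SE and names coloured by role. Most bars cross 0, and Ppt1 lies at 0.94 in Kupffer cells and at -0.87 in MoM.

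The authors' deposited table of TG against WT lists 179 genes, none of which is among the 41, and the file does not name its cell type.

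Other genes of the lysosome, 129 in 6 lists of which 125 were tested, were set beside the 41. In WT 96 of the 125 had a negative log2 fold change of MoM against Kupffer cells and in TG 89, with medians of -0.47 and -0.49. The test called 4 of them higher and 0 lower in WT, where 1.17% of all genes were called, and 1 higher and 1 lower in TG, where 2.5% were. In both genotype comparisons and in the interaction 0 of the 125 were called.

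Genes of acidification, the proton pump and its chloride exchanger, had negative values for 18 of 19 in each genotype (medians -0.46 and -0.59), and 0 were called. The smallest p belonged to Atp6v1a, the catalytic subunit of the pump, with 261 and 230.0 CPM in WT Kupffer cells, 278 and 174 CPM in TG Kupffer cells, 107 and 72.7 CPM in WT MoM and 111 and 118 CPM in TG MoM (log2 fold change -1.45 ± 0.31, adjusted p = 0.0788 in WT). The 29 other hydrolases had medians of -0.83 and -1.02. Against that direction Naaa, which degrades acylethanolamines, had 63.5 and 54.9 CPM in WT Kupffer cells, 109 and 85.3 CPM in TG Kupffer cells, 313 and 214 CPM in WT MoM and 203 and 285 CPM in TG MoM and rose from Kupffer cells to MoM in WT (log2 fold change 2.15 ± 0.30, adjusted p = 0.0382). All 4 MoM libraries of Naaa lay above all 4 Kupffer libraries.

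Among the 23 other membrane proteins (medians -0.57 and -0.66), Tpcn1, an ion channel of endosomes and lysosomes, had 18.96 and 17.02 CPM in WT Kupffer cells, 18.7 and 39.3 CPM in TG Kupffer cells, 87.5 and 139 CPM in WT MoM and 78.3 and 71.9 CPM in TG MoM and rose in WT (log2 fold change 2.66 ± 0.41, adjusted p = 0.0478). Cd164, a sialomucin, had 1139 and 1080.5 CPM in WT Kupffer cells, 1301 and 841 CPM in TG Kupffer cells, 444 and 225 CPM in WT MoM and 194 and 236 CPM in TG MoM and fell in TG (log2 fold change -2.32 ± 0.41, adjusted p = 0.0486). The 26 tested genes of sorting and delivery had medians of -0.35 and -0.12. Sort1, the sorting receptor sortilin, had 3.59 and 2.05 CPM in WT Kupffer cells, 68.2 and 41.9 CPM in TG Kupffer cells, 38.9 and 64.2 CPM in WT MoM and 129 and 125 CPM in TG MoM. It rose from Kupffer cells to MoM in WT (log2 fold change 4.19 ± 0.44, adjusted p = 0.0260). Sort1 also stood above WT in both TG Kupffer libraries (log2 fold change 4.28 ± 0.44, adjusted p = 0.199 with edgeR). The authors' deposited table gives it a log2 fold change of 4.30 with an error of 0.494 for TG against WT. Its adjusted p in the authors' own test was 6.7e-15. The cathepsin inhibitors, 5 of 8 tested, had medians of 0.15 and -1.18. Serpina3g, a serpin that inhibits cathepsins, had 170.3 and 159 CPM in WT Kupffer cells, 1035 and 1408 CPM in TG Kupffer cells, 211 and 155 CPM in WT MoM and 206 and 508 CPM in TG MoM. Its difference in Kupffer cells was not called here (log2 fold change 2.89 ± 0.48, adjusted p = 0.660 with edgeR). The authors' deposited table gives Serpina3g a log2 fold change of 2.91 with an error of 0.284, and an adjusted p of 1.6e-20 in the authors' own test.

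Of the TFEB family and the mTORC1 proteins at the lysosome, 0 of 23 were called in any comparison, with medians of -0.36 and -0.31 between subsets. Tfeb had 42.6 and 64.7 CPM in WT Kupffer cells, 50.5 and 32.7 CPM in TG Kupffer cells, 51.9 and 61.7 CPM in WT MoM and 93.7 and 72.4 CPM in TG MoM, with log2 fold changes of MoM against Kupffer cells of 0.08 ± 0.31 in WT and 1.00 ± 0.32 in TG. Its relatives stood lower in MoM. Tfe3 had 138 and 151 CPM in WT Kupffer cells, 139 and 131 CPM in TG Kupffer cells, 94.9 and 90.5 CPM in WT MoM and 77.3 and 104 CPM in TG MoM. Mitf had 62.8 and 84.04 CPM in WT Kupffer cells, 61.8 and 49.2 CPM in TG Kupffer cells, 31.5 and 11.6 CPM in WT MoM and 21.5 and 30.5 CPM in TG MoM, and Tfec, a member found mainly in macrophages, had 84.97 and 97.9 CPM in WT Kupffer cells, 102 and 82.8 CPM in TG Kupffer cells, 44.1 and 7.11 CPM in WT MoM and 6.02 and 18.7 CPM in TG MoM. For these 3 all MoM libraries lay below all Kupffer libraries, and the log2 fold changes in WT were -0.64 ± 0.20, -1.77 ± 0.49 and -1.84 ± 0.87. The smallest p in this list belonged to Slc38a9, an amino acid sensor of the lysosome, with 30.4 and 35.8 CPM in WT Kupffer cells, 25.1 and 18.95 CPM in TG Kupffer cells, 23.00 and 27.7 CPM in WT MoM and 50.5 and 38.98 CPM in TG MoM (log2 fold change 1.02 ± 0.25, adjusted p = 0.0792 in TG). Set by the E-box of their own windows, the 13 members that hold CACGTG had a median log2 fold change of MoM against Kupffer cells of -1.10 in WT and -1.29 in TG, and the 24 without it of -0.86 and -0.80. In each genotype 12 of the 13 were negative, and of the 24 without the motif 18 were in WT and 19 in TG. The ranges of the 2 sets overlapped, from -2.28 to 0.07 and from -2.19 to 2.89 in WT and from -2.92 to 0.19 and from -1.86 to 1.75 in TG. Ctsa and Lgmn count as holding the motif by the window of a downstream start. Ctsb, Asah1, Npc1 and Ctsh, which have no window, are in neither set. Any part of the E-box or of the TFEB family in these differences was not tested.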

How the data were processed

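Poly(A) RNA of 8 mouse libraries was analysed, 2 in each of 4 groups given by the sample titles. The deposited files hold counts, 1 whole number per gene symbol and library, not normalized. STAR 2.5.2b and the build mm10 are named per the submitters' processing notes. Which counter, gene annotation and strand option produced the counts is not given in the sources used here. Of counts below 20, 65.0% to 68.0% were even. The authors' deposited table of TG against WT holds, per the file headers, a mean normalized signal, log2 fold changes and errors, a test statistic (a score) and p-values.

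All 8 libraries were fitted together in edgeR 4.0.16 (R 4.3.3, limma 3.58.1) after its filter on low counts (15254 of 24786 symbols) with TMM normalization and the quasi-likelihood test, two-sided. Benjamini-Hochberg adjustment ran over all genes tested, with a gene called below 0.05. The fit had a common biological coefficient of variation of 0.507 and, per gene, 4 residual and 2.37 prior degrees of freedom. CPM are scaled by TMM, and SE is that of the log2 fold change. Gene positions and exon lengths came from GENCODE (GRCm38, the same assembly as mm10), and promoter windows from RefSeq. Of the 41 members, 15 share exon bases with another gene, 7 over more than 10% of them (Arsb, Ctsd, Ctsl, Sgsh, Arsa, Ctsb and Ctsa).

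The members and all gene lists were chosen with earlier results of these data known. Values in every library are given for members called in any comparison, the 3 with the smallest p in each direction of each comparison, the 3 highest per kilobase and the 7 membrane proteins, and ranges for the rest; of the other lists, the called genes, or else the 1 with the smallest p, and the TFEB family. The values of 1 called gene of the other lists are not reported here. As alternatives the fit was repeated with a replicate block, with size factors by median of ratios, without the filter, with each library left out, with only the libraries compared, with Kupffer TG replicate 2 and MoM WT replicate 1 left out together, and in DESeq2 1.42.0; leaving libraries out of the counts of non-overlapping genes was added after seeing the data. Python 3.11.15 (pandas 2.3.3, numpy 2.4.6, matplotlib 3.10.9) served for joins and figures.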

Additional observations from a re-analysis of the deposited data

Results flagged for a closer look

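In 2 genes all TG libraries lay on one side of all WT libraries in Kupffer cells and on the other side in MoM, a pattern that 6.58% of all genes tested showed. Ppt1 stood higher in TG Kupffer cells (166 and 149 CPM in WT and 267 and 338 CPM in TG Kupffer cells) and lower in TG MoM (429 and 303 CPM in WT and 162 and 239 CPM in TG MoM), and the difference of the genotype effects was -1.81 ± 0.42 on the log2 scale (adjusted p = 0.626 with edgeR and 0.024 with DESeq2). Ids stood lower in TG Kupffer cells (94.9 and 90.2 CPM in WT and 86.9 and 73.1 CPM in TG Kupffer cells) and higher in TG MoM (84.8 and 113 CPM in WT and 124 and 124 CPM in TG MoM), and the difference was 0.53 ± 0.29 (adjusted p = 0.628).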

How the results depend on the processing

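The negative medians of MoM against Kupffer cells kept their sign under every alternative, and the number of called members did not hold. In WT, 0 members were called in the full fit, 6 with only the libraries compared (1585 of all genes, against 178 in the full fit), 26 with DESeq2 and 27 without Kupffer TG replicate 2 and MoM WT replicate 1 together, and 0 to 12 over the fits that leave out 1 library, the highest without MoM WT replicate 1 (729 of all genes) and 8 without either TG Kupffer library (1378 and 1434 of all genes). Its median of -1.03 ran from -1.53 without MoM WT replicate 1 to -0.67 without MoM WT replicate 2, and was -1.55 without both libraries. In TG, 1 member was called in the full fit, 2 with median-of-ratios size factors, 2 with no filter, 0 with only the libraries compared, 23 without both libraries, 21 with DESeq2, and 0 to 11 over the fits that leave out 1 library, the highest without either WT MoM library (1006 and 1026 of all genes, against 381 in the full fit). Its median of -0.85 ran from -1.15 without Kupffer TG replicate 2 to -0.76, and was -1.15 without both libraries. The median of TG against WT was -0.41 to 0.07 in Kupffer cells over the fits that leave out 1 library and -0.39 to 0.23 in MoM, the highest without MoM WT replicate 1. In the interaction DESeq2 called 1 member. With the replicate block 0 members were called in TG, where the call of Ctsd was lost, and 0 in the other comparisons, and the medians were -1.05, -0.82, -0.17, -0.13 and 0.07 in the order WT, TG, Kupffer, MoM and interaction. Same-numbered replicates of different groups shared deviations with correlations over 0.1 in 4 of the 6 pairs of groups. The highest was that of TG Kupffer cells with TG MoM (0.619) and the lowest that of WT Kupffer cells with WT MoM (-0.135). The replicate numbers were not treated as pairing the libraries. Over the fits that leave out 1 library Psap ran from -0.51 (without MoM WT replicate 1) to 0.082 (without MoM WT replicate 2) in WT and from -0.69 (without Kupffer TG replicate 2) to 0.068 (without Kupffer TG replicate 1) in TG. Over 48 comparisons of members picked by the naming rule, which are not all the values printed, 666 values were computed under the alternatives, of which 583 kept their sign and side of the threshold, 74 came to pass it, 7 no longer passed and 2 changed sign; the cause was not tested. Over all alternatives 36 of 41 members kept their sign in each subset comparison, 22 and 13 in the genotype comparisons of Kupffer cells and MoM, and 12 in the interaction. Among printed values that did not keep it are those of Gla between subsets, of Ctss, Ctsd, Lamp1 and Lamp2 for genotype in Kupffer cells and of Lgmn for genotype in MoM. Ctsk, at 17 to 89 counts, had the widest error between subsets in WT (0.80). Width did not follow the counts in general. In the same comparison Ctsb, at 27624 to 324349 counts, had an error of 0.72, and Smpd1, at 432 to 813 counts, one of 0.20.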
